A study of Mus musculus with 22 samples.

Results

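Transcripts of 9 genes around the cytokine tumour necrosis factor (TNF) and the canonical NF-kB pathway were followed across mouse pancreatic tumours. The genes were taken by name from a table of 17966, with earlier results of these data known. They are the cytokine gene Tnf, its receptor genes Tnfrsf1a and Tnfrsf1b, the subunit gene Nfkb1 and the inhibitor genes Nfkbia and Nfkbie. The others are Nfkbiz, the gene of a nuclear IkB protein, the deubiquitinase gene Tnfaip3 and the adhesion gene Icam1. All 9 were found and all 9 were among the 14278 genes that passed the filter on low values, a normalized count of at least 10 in at least 5 tumours. The 22 orthotopic tumours grew from the line PDA.7940B, polyclonal ductal adenocarcinoma cells derived from KPC mice, and every sample is labelled WT. Untreated tumours (n = 5) were set beside tumours taken 10 days after 1 intravenous dose of 1.2 mg beta-glucan (n = 6), after 1 intraperitoneal dose of 0.1 mg of the anti-CD40 antibody FGK45 (n = 6), or after both agents (n = 5; the labels give no doses for the combination). Beta-glucan is a glucose polysaccharide, found in the walls of fungi, that myeloid cells bind, and CD40 is an activating receptor of antigen-presenting cells. All tumours come from 1 cell line. The labels do not state that each tumour is from its own mouse, and p-values then measure only the spread between these samples, which may be technical.

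TNF is made mainly by activated myeloid cells and T cells, is cut from the cell surface by the protease ADAM17, and signals through the receptor encoded by Tnfrsf1a, found on most cells, and the one encoded by Tnfrsf1b, found mainly on leukocytes and endothelium. In resting cells IkB proteins hold NF-kB in the cytoplasm. A receptor signal leads to destruction of the IkB proteins, NF-kB enters the nucleus, and among its first targets are the genes of its own inhibitors, so Nfkbia, Nfkbie and Tnfaip3 form negative feedback loops. Transcript levels can reflect that feedback but, in bulk tissue, also the mix of cells, and they do not measure NF-kB protein in the nucleus.

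Of the 9 genes, 7 have a promoter entry in RefSeq's table for GRCm38.p6, and Nfkb1 and Nfkbiz have none there. Shown are the 4 of these 7 genes that passed the test most often or with the largest difference. Nfkbiz passed in as many comparisons as Nfkbia but has no entry. The 220 bases before each start site are given because NF-kB binds DNA near such starts. They read 5' to 3' along the gene's strand, and capitals mark matches to the NF-kB consensus of 10 letters, which stands here by its name, or to the 9-letter motif GGNNNTTCC, with both strands searched and overlapping matches merged.
Nfkbia, chr12:55492648-55492867, minus strand: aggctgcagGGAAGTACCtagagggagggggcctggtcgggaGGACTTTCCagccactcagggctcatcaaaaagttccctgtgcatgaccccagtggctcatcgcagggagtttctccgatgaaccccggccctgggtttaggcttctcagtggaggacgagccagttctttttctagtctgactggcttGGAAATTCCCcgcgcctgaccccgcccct
Nfkbie, chr17:45555480-45555699, plus strand: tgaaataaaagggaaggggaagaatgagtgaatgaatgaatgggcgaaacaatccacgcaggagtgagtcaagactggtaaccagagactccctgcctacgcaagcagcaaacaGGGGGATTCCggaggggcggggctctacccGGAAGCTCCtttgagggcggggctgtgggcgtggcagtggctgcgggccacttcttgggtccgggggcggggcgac
Icam1, chr9:21015720-21015939, plus strand: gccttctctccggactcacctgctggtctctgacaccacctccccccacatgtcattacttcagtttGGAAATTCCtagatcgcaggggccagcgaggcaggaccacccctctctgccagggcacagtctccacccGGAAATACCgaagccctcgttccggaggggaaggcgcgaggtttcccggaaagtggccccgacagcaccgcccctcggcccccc
Tnf, chr17:35202008-35202227, minus strand: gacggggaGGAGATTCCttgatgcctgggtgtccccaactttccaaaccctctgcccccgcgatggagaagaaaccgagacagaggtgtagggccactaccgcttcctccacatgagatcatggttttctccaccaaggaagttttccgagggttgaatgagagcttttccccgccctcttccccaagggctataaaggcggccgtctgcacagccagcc
The Nfkbia window held a consensus match 20 bases before the start and further 9-letter matches 170 and 203 bases before it. In the Nfkbie window the consensus match ended 97 bases before the start, and a 9-letter match ended 68 bases before it. Icam1 had 9-letter matches 145 and 76 bases before its start, and Tnf had 1, which lay 204 bases before its start. Of all 32851 promoters of 300 bases in that table, 4.51% held the consensus and 18.5% the 9-letter motif on either strand. Tnfaip3, which passed in no comparison, has 2 entries in the table. The first held consensus matches 116 and 3 bases before its start and a 9-letter match 16 bases before it, among others, and the second held a 9-letter match 81 bases before its start. Tnfrsf1a had a 9-letter match 6 bases before its start, and the entry for Tnfrsf1b had neither motif. A match describes letters and is not evidence of binding, which was not measured.

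Recovered depth, in M reads per tumour, was 7.38 to 9.34 (untreated), 7.13 to 8.74 (beta-glucan), 6.33 to 21.2 (anti-CD40) and 12.2 to 18.8 (combination). The combination's range does not overlap those of untreated and beta-glucan tumours. In those comparisons a fit with depth as a covariate cannot tell depth and treatment apart. Digestive enzyme transcripts of acinar cells took 0.0170 to 15.9% of the signal in untreated tumours, 0.488 to 15.3% with beta-glucan, 0.551 to 59.0% with anti-CD40 and 0.526 to 31.4% with both, and 4 tumours were over 30%. Markers of ductal and tumour epithelium were present in every group: the sum of 9 genes ran from 31770.5 to 42930 in untreated tumours and from 3598 to 9092 with the combination. Untreated tumour 6 stood apart from the other untreated tumours, with a macrophage marker sum of 74170 against 15738 to 22797. Its acinar share was 15.9%, against 0.0170 to 3.38% in the others. Its sum of epithelial markers was the lowest of the group (31770.5, against 40321 to 42930). Its sums of T cell, B cell and islet markers were the highest of the group. Anti-CD40 tumour 6, the tumour with the highest acinar share (59.0%), also stood apart from its group. Results that rest on these tumours are given with and without them.

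In plain terms, 6 of the 9 transcripts were higher in tumours given both agents and 1, Nfkbiz, was lower. Nfkbia and Nfkbie, which encode IkB alpha and IkB epsilon, and Icam1 passed the test as higher with each agent alone and with both. Tnf and Tnfrsf1b passed with beta-glucan and with the combination, Tnfrsf1a passed with the combination, and Nfkb1 and Tnfaip3 passed in none of the 6 comparisons. Differences are limma estimates on the scale of log2(normalized count + 1) with a standard error after ±, and p-values are adjusted by the Benjamini-Hochberg method over 14278 genes with a threshold of 0.05. A fold is 2 to the power of that difference. Levels are normalized counts with the SD over tumours after ±.

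With beta-glucan, 5 of the 9 genes were called higher and 0 lower, where 6.42% of all genes tested were called, 5.09% as higher and 1.32% as lower. With anti-CD40, 3 were called higher and 1 lower, against 18.6% of all genes called, 11.0% higher and 7.56% lower. With the combination, 6 were called higher and 1 lower, against 34.0% of all genes called, 18.2% higher and 15.8% lower. Groups did not overlap for 2 of the 9 genes with beta-glucan (both above untreated; 3.98% of all genes tested lay above and 2.87% below), for 1 above and 1 below with anti-CD40 (5.03% and 4.08%), and for 5 above and 1 below with the combination (11.7% and 10.3%). The median difference over the 9 genes was 1.0, 0.81 and 1.36 in these comparisons, beside medians of 0.02, 0.00 and -0.01 over all genes tested. The 3 comparisons share the untreated tumours. Because the 9 genes were chosen with earlier results of these data known, counts above the shares of all genes are a description and not independent support. When values were rescaled to equal totals per tumour, a scaling in which acinar reads count fully, the median of all genes moved to 0.07, -0.56 and -0.45, and the calls among the 9 became 0, 0 and 2 (1 higher, Tnf, and 1 lower, Nfkbiz). With that scaling 1.78% of all genes were called with beta-glucan and 16.9% with anti-CD40. The beta-glucan differences of the 5 genes stayed near those of the main fit (Nfkbia 1.28 against 1.23). With equal totals without acinar genes the medians of all genes were 0.07, -0.18 and -0.17.

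**Figure D1:**
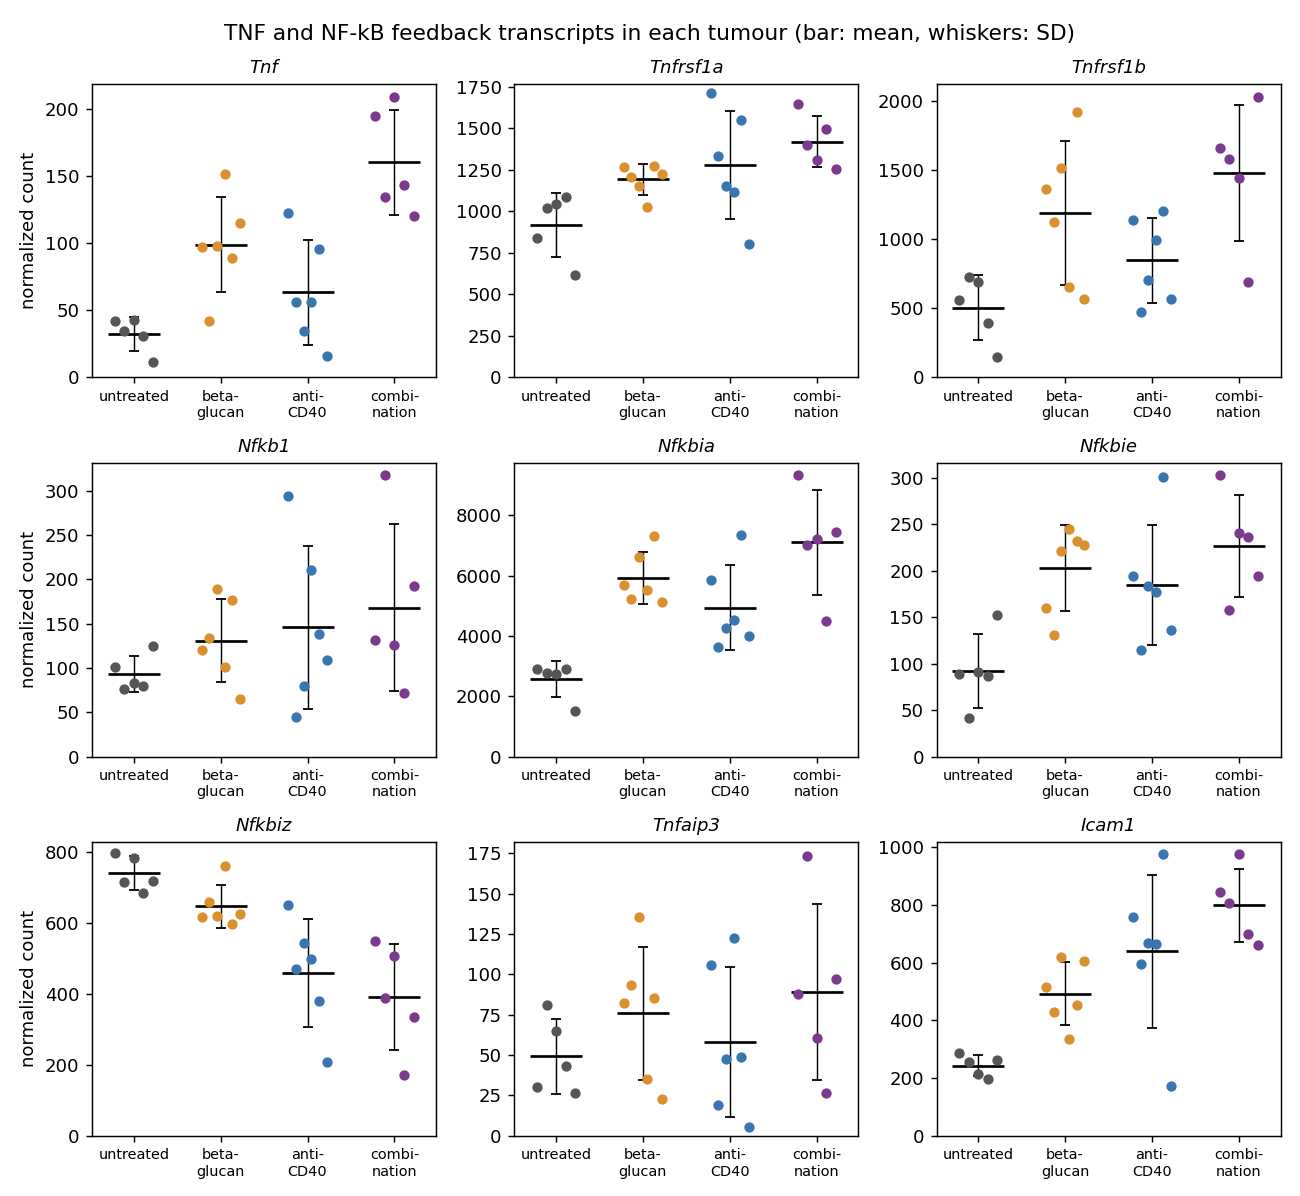
Normalized counts of the 9 genes (vertical axes, linear, from 0) in each tumour, by treatment group, with the group mean as a bar and the SD as whiskers. Tnf, Tnfrsf1a, Nfkbia, Nfkbie and Icam1 of the 5 combination tumours all lie above the 5 untreated ones, and Nfkbiz lies below.

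Markers of several cell types moved in the same comparisons. Of 10 macrophage genes, 5 passed as higher with beta-glucan, 7 with anti-CD40 and 9 with the combination, and their summed level was 15738 to 74170 in untreated tumours, 39753 to 53811 with beta-glucan, 52360 to 118258 with anti-CD40 and 74158 to 121555 with the combination. Of 9 neutrophil genes, 6, 4 and 8 passed as higher and 1, Cxcr2, as lower with anti-CD40, with sums of 1418 to 4104, 11943 to 18467, 1604 to 22423 and 24832 to 36551 in the same order of groups; Ly6g, which defines mouse neutrophils, was at 0 in every untreated tumour. Of 8 T cell genes, 0, 7 and 8 passed as higher, of 5 B cell genes tested 2, 5 and 5, and of 7 fibroblast genes 5, 3 and 7. Epithelial genes went the other way, with 2, 7 and 9 of 9 lower. In bulk tissue, more cells of a type and more RNA per cell cannot be told apart, and the part of these cell types in the results below was not tested.

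Tnf, the ligand (chr17:35199381-35202007, minus strand), was the gene with the largest rise of the 9 in the combination. Its normalized counts in untreated tumours 1, 2, 3, 5 and 6 were 42.4, 34.5, 43.0, 30.9 and 11.3. In combination tumours 1 to 5 they were 195, 135, 209, 143 and 120.3, so that the lowest combination tumour was far above the highest untreated one. With beta-glucan the lowest value was 42.4, the median 97.7 and the highest 152, and 5 of 6 tumours exceeded every untreated tumour. With anti-CD40 they were 16.3, 56.3 and 122, so that the lowest lay inside the untreated range, and 4 of 6 tumours lay above it. The means were 32.4 ± 12.9 untreated, 99.1 ± 35.7 with beta-glucan, 63.6 ± 39.2 with anti-CD40 and 160.5 ± 39.2 with the combination. These values rest on 9 to 51 reads per untreated tumour and on 108 to 303 per combination tumour.

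Tnf rose 5.17-fold with the combination (log2 2.37 ± 0.45, limma adjusted p = 0.000274) and 3.07-fold with beta-glucan (1.62 ± 0.43, adjusted p = 0.0245). The combination call was kept in all 32 alternative fits, which gave log2 differences of 1.92 to 3.09 and adjusted p up to 0.0306. The beta-glucan call was lost with equal totals (log2 1.67, adjusted p = 0.207), with equal totals without acinar genes (1.67, 0.0635), and when untreated tumour 5 or 6 or beta-glucan tumour 3, 4 or 5 was left out (adjusted p = 0.0514, 0.0638, 0.0507, 0.0530 and 0.0519). With anti-CD40 alone the difference of 0.81 ± 0.43 did not pass (adjusted p = 0.206). It passed without anti-CD40 tumour 6 (1.14, adjusted p = 0.0459) and with the acinar level as a covariate (1.54, adjusted p = 0.0246), and shrank to 0.49 without untreated tumour 6 (adjusted p = 0.464).

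Tnfrsf1a encodes the receptor with a death domain, and its counts moved little (chr6:125349362-125362484, plus strand). Untreated tumours 1, 2, 3, 5 and 6 stood at 837, 1017, 1041, 1083 and 617, and combination tumours 1 to 5 at 1643, 1398, 1308, 1492 and 1252. The 2 groups did not overlap, and the means were 919 ± 193 and 1419 ± 155. This was a rise of 1.57-fold (log2 0.65 ± 0.19, limma adjusted p = 0.00863), lost with equal totals (0.19, adjusted p = 0.762), with equal totals without acinar genes (0.47, 0.210) and with depth as a covariate (0.62, 0.0573). Beta-glucan tumours ran from 1022 through a median of 1216 to 1271, and anti-CD40 tumours from 801 through 1244 to 1713. Neither difference passed (0.40 ± 0.18, adjusted p = 0.212, and 0.46 ± 0.18, adjusted p = 0.0718). For anti-CD40 the sign turned with equal totals (-0.12), while without anti-CD40 tumour 6 the difference passed (0.59, adjusted p = 0.0142).

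Tnfrsf1b encodes the receptor of leukocytes and endothelium that lacks a death domain (chr4:145213463-145246870, minus strand). Its counts were 559, 724, 689.7, 396 and 150.3 in untreated tumours 1, 2, 3, 5 and 6, and 1661, 1579, 1446, 693 and 2034 in combination tumours 1 to 5. Combination tumour 4 fell inside the untreated range and the other 4 lay above it. Beta-glucan tumours ran from 568 through a median of 1245 to 1925, with 4 of 6 above every untreated tumour, and anti-CD40 tumours from 472 through 848 to 1208, with 3 of 6 above. Tnfrsf1b was 3.17-fold higher with the combination (log2 1.66 ± 0.41, limma adjusted p = 0.00285) and 2.47-fold higher with beta-glucan (1.30 ± 0.39, adjusted p = 0.0463); the combination call was lost with equal totals (1.21, adjusted p = 0.125). The beta-glucan call lay at the threshold and was lost in 17 of 32 alternatives, among them edgeR's quasi-likelihood test (1.25, adjusted p = 0.0517). It was lost without untreated tumour 1, 5 or 6 (1.39, 1.26 and 0.92; adjusted p = 0.0652, 0.104 and 0.118) and without beta-glucan tumour 1, 2, 3 or 5 (1.24, 1.29, 1.21 and 1.14; adjusted p = 0.0877, 0.0783, 0.103 and 0.131). Leaving out anti-CD40 tumour 3 or 4 or combination tumour 1, 2 or 3 gave adjusted p from 0.0532 to 0.0546. With anti-CD40 the difference of 0.85 ± 0.39 did not pass (adjusted p = 0.134), and it was 0.47 without untreated tumour 6 (adjusted p = 0.379).

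The log2 ratio of Tnfrsf1b to Tnfrsf1a within a tumour does not depend on that tumour's size factor. It averaged -1.03 ± 0.68 (SD, n = 5) in untreated and -0.12 ± 0.64 (n = 6) in beta-glucan tumours. In anti-CD40 tumours it was -0.64 ± 0.46 (n = 6) and in combination tumours -0.01 ± 0.66 (n = 5). The difference from untreated was 0.90 with beta-glucan (exact two-sided permutation test, p = 0.0584), 0.39 with anti-CD40 (exact p = 0.264) and 1.01 with the combination (exact p = 0.0476). None of the 5 comparisons passed after adjustment over them (exact adjusted p = 0.146, 0.330 and 0.146 in the order given), and the smallest p the design allows was 0.00216 for 6 against 5 tumours and 0.00794 for 5 against 5. Leaving out 1 tumour moved these differences both ways. Without combination tumour 4, the combination tumour with the lowest Tnfrsf1b, the combination's difference from untreated was 1.29 (exact adjusted p = 0.0238). Without untreated tumour 6, which had the lowest ratio (-2.03), the differences from untreated were 0.65, 0.14 and 0.76 in the order given. Those are the lowest values with 1 tumour left out.

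Nfkb1 encodes p105, the precursor of the p50 subunit, and is itself an NF-kB target (chr3:135584655-135691547, minus strand). Levels ran from 76.0 to 125 in untreated tumours, 65.2 to 189.6 with beta-glucan, 45.1 to 294 with anti-CD40 and 71.7 to 318 with the combination. Every treated group thus reached both below and above the untreated range. The differences of 0.43 ± 0.40, 0.42 ± 0.40 and 0.70 ± 0.42 did not pass (limma adjusted p = 0.631, 0.524 and 0.217), and that of anti-CD40 turned with equal totals (-0.16).

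Nfkbia encodes IkB alpha, the inhibitor that NF-kB restores first after a signal (chr12:55489410-55492647, minus strand). Counts were 2906, 2785, 2749.8, 2922 and 1503 in untreated tumours 1, 2, 3, 5 and 6. They were 9354, 7032, 7218, 4483 and 7447 in combination tumours 1 to 5. Beta-glucan tumours ran from 5144 through a median of 5599.6 to 7318, and anti-CD40 tumours from 3635 through 4390.2 to 7343. All 17 treated tumours exceeded the highest untreated tumour, which for no other of the 9 genes was the case. Nfkbia was 2.35-fold higher with beta-glucan (log2 1.23 ± 0.21, limma adjusted p = 0.000632), 1.91-fold with anti-CD40 (0.94 ± 0.21, adjusted p = 0.00288) and 2.77-fold with the combination (1.47 ± 0.22, adjusted p = 1.73e-05). Without untreated tumour 6, which had the lowest count, the differences were 1.05, 0.75 and 1.28 and all 3 passed (adjusted p = 0.00112, 0.00821 and 3.45e-05). With equal totals none passed (1.28, 0.35 and 1.01; adjusted p = 0.144, 0.559 and 0.0890), and with equal totals without acinar genes the anti-CD40 call alone was lost (0.75, adjusted p = 0.0820).

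Nfkbie encodes IkB epsilon, an inhibitor induced more slowly (chr17:45555703-45563169, plus strand). In untreated tumours 1, 2, 3, 5 and 6 it stood at 89.0, 41.4, 91.3, 87.1 and 153, and in combination tumours 1 to 5 at 303, 157, 240.1, 236 and 194. Untreated tumour 6, lowest for Tnf and Nfkbia, was here the highest of its group, and still lay under every combination tumour. Beta-glucan tumours ran from 131 through a median of 225 to 245, with 5 of 6 above all untreated tumours, and anti-CD40 tumours from 115 through 180.1 to 301, with 4 of 6 above. The rises were 2.31-fold (log2 1.21 ± 0.29, limma adjusted p = 0.0113), 2.05-fold (1.04 ± 0.29, adjusted p = 0.0129) and 2.57-fold (1.36 ± 0.30, adjusted p = 0.00107) with beta-glucan, anti-CD40 and the combination. With equal totals all 3 calls were lost (1.26, 0.46 and 0.91; adjusted p = 0.166, 0.450 and 0.136). The anti-CD40 call was lost also with equal totals without acinar genes (0.85, adjusted p = 0.0689), with the acinar level as a covariate (0.96, 0.0728) and without untreated tumour 2 (0.78, 0.0527).

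Nfkbiz encodes IkB zeta, a nuclear IkB protein that works with p50 on a subset of late NF-kB targets, and it was the 1 gene of the 9 that fell (chr16:55811375-55838899, minus strand). Its counts were 798, 716, 784, 686 and 719 in untreated tumours 1, 2, 3, 5 and 6, the tightest group of any of the 9 genes by coefficient of variation (6.47%). In combination tumours 1 to 5 they were 549, 389.8, 508, 171 and 336. Anti-CD40 tumours ran from 209 through a median of 484 to 652 and beta-glucan tumours from 598 through 623 to 762. All anti-CD40 and combination tumours lay below every untreated tumour, and 5 of 6 beta-glucan tumours did. On the log2 scale Nfkbiz fell by 0.77 ± 0.26 in anti-CD40 tumours (limma adjusted p = 0.0371) and by 1.03 ± 0.27 in combination tumours (adjusted p = 0.00441), and its difference with beta-glucan was -0.20 ± 0.26 (adjusted p = 0.747). Of the 9 epithelial markers 7 fell with anti-CD40 and all 9 with the combination. Within groups Nfkbiz varied with them by rank (rho = 0.673, permutation adjusted p = 0.0189), while Pearson's r = 0.611 did not pass (permutation adjusted p = 0.160). That comparison was added after the data were seen, and the part of epithelial cells in the fall of Nfkbiz was not tested. The combination call was lost with the acinar level as a covariate (-0.70, adjusted p = 0.0759). That for anti-CD40 was lost in 11 of 32 alternatives, among them edgeR (-0.69, adjusted p = 0.0556), the acinar covariate (-0.44, 0.338), and leaving out untreated tumour 1, 2, 3 or 5 (0.0801, 0.0603, 0.0697 and 0.0588) or anti-CD40 tumour 5 or 6 (-0.73, 0.0723, and -0.56, 0.0928).

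Tnfaip3 encodes A20, a ubiquitin-editing enzyme that shuts off signalling from the TNF receptor complex (chr10:19000910-19015657, minus strand). Levels were low, at 26.3 to 81.1 in untreated tumours, 23.0 to 136 with beta-glucan, 5.43 to 122 with anti-CD40 and 26.6 to 174 with the combination, on 2 to 285 reads per tumour. The groups overlapped throughout. The differences of 0.52 ± 0.63, -0.20 ± 0.63 and 0.73 ± 0.66 did not pass (limma adjusted p = 0.725, 0.869 and 0.419), and their standard errors were the largest of the 9 genes. For anti-CD40 the sign depended on the fit, with 0.24 by edgeR, 0.25 by DESeq2 and 0.33 without anti-CD40 tumour 6, where the count was 5.43.

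Icam1 encodes the adhesion molecule that leukocyte integrins bind, a classical NF-kB target on endothelium and epithelium (chr9:21015985-21028817, plus strand). Untreated tumours 1, 2, 3, 5 and 6 stood at 287, 256, 213, 198 and 263, and combination tumours 1 to 5 at 846, 808, 978, 699 and 662. No combination tumour came near the untreated range. Beta-glucan tumours ran from 335 through a median of 484 to 621, all above every untreated tumour, while anti-CD40 tumours ran from 171 through 667 to 976. In that group 5 tumours lay at 596 or more and tumour 6, at 171, below every untreated tumour. Icam1 was 2.0-fold higher with beta-glucan (log2 1.0 ± 0.29, limma adjusted p = 0.0409), 2.35-fold with anti-CD40 (1.23 ± 0.29, adjusted p = 0.00433) and 3.27-fold with the combination (1.71 ± 0.31, adjusted p = 0.000130). Without anti-CD40 tumour 6 the anti-CD40 difference was 1.58 (adjusted p = 3.58e-06).

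The beta-glucan call of Icam1 was lost in 12 of 32 alternatives. They include equal totals (1.05, adjusted p = 0.443), depth as a covariate (0.98, 0.0542), and leaving out untreated tumour 1, 2, 3 or 5 (adjusted p = 0.0599, 0.0688, 0.0855 and 0.109) or beta-glucan tumour 1, 2, 3, 5 or 6 (0.0711, 0.0575, 0.0952, 0.0758 and 0.0803). With equal totals the anti-CD40 and combination calls were lost too (0.65 and 1.25; adjusted p = 0.365 and 0.0854), and with equal totals without acinar genes that for anti-CD40 was lost (1.04, adjusted p = 0.0696). The 3' end of Icam1 overlaps an antisense gene, Gm47079, and whether reads were counted by strand is not given in the sources used here, so reads of the 2 genes cannot be told apart. Endothelial markers summed to 1800.5 to 3506 in untreated tumours, 2996 to 4843 with beta-glucan, 3467 to 11471 with anti-CD40 and 5229.8 to 11305 with the combination, and 2, 4 and 6 of 8 passed as higher; their part in the rise was not tested.

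**Figure D2:**
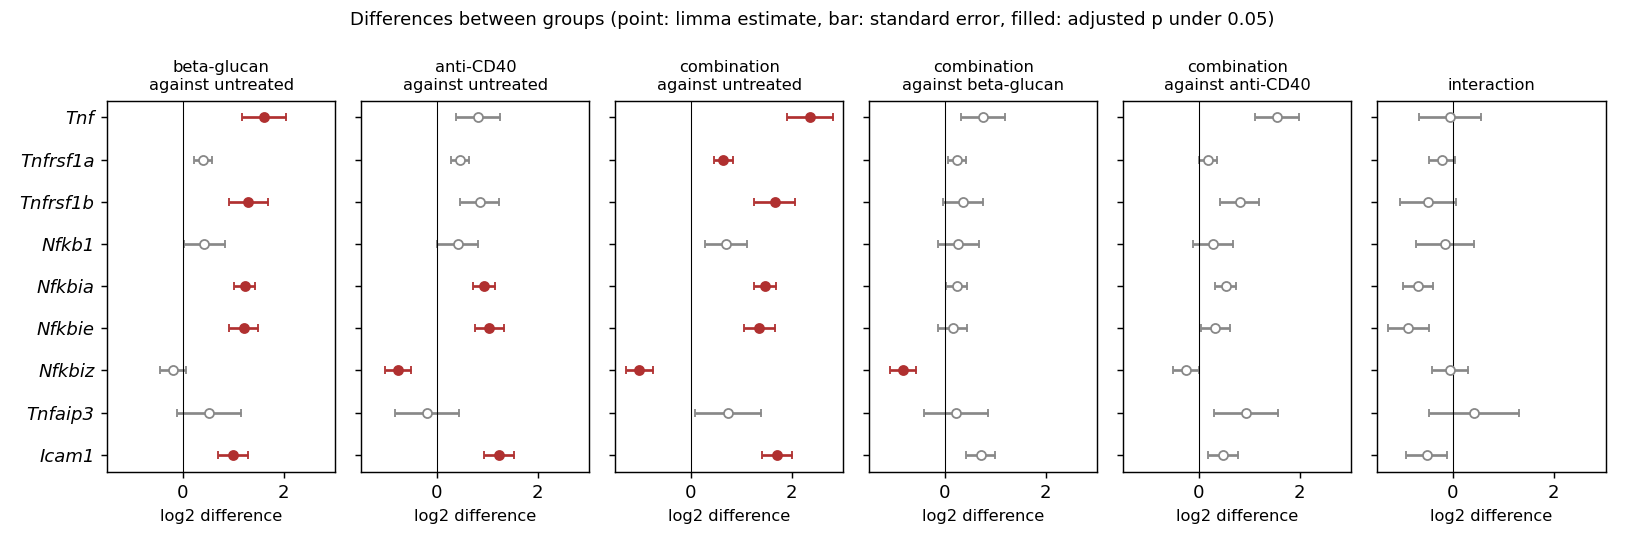
Differences between groups for the 9 genes (horizontal axes, log2) with their standard errors, 1 panel per comparison, and filled points where the limma adjusted p was under 0.05. Filled points number 5, 4 and 7 against untreated, 1 against beta-glucan, and 0 in the last 2 panels.

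Adding anti-CD40 to beta-glucan was read from the combination against beta-glucan. In that comparison 1 of the 9 genes was called, Nfkbiz, as lower, where 14.1% of all genes were called, 6.49% higher and 7.61% lower. Nfkbiz fell by 0.83 ± 0.26 on the log2 scale (limma adjusted p = 0.0307), with no overlap between the groups, as for 5.8% of all genes. That call was lost in 11 of 32 alternatives, among them the fit without tumours over 30% acinar (-0.43, adjusted p = 0.131), edgeR (-0.75, 0.0502), and leaving out beta-glucan tumour 1, 2 or 4 (0.0514, 0.0553 and 0.0642) or combination tumour 4 or 5 (-0.56, 0.117, and -0.80, 0.0674). All 5 combination tumours exceeded every beta-glucan tumour for Icam1, as did 5.68% of all genes tested, but the difference of 0.71 ± 0.29 did not pass (adjusted p = 0.106). It passed without tumours over 30% acinar (0.86, adjusted p = 0.0171), with the acinar covariate (0.93, 0.0404) and without anti-CD40 tumour 6 (0.71, 0.00775).

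Adding beta-glucan to anti-CD40 was read from the combination against anti-CD40. By limma 0 of the 9 genes were called, against 1.48% of all genes, 3 had an unadjusted p under 0.05 (Tnf, Tnfrsf1b and Nfkbia), edgeR called 0 and DESeq2 called 1. Tnf was 2.94-fold higher in the combination (log2 1.55 ± 0.43, adjusted p = 0.0676), the lowest adjusted p of the 9. It passed with DESeq2 (1.30, adjusted p = 0.0312), a pseudocount of 8 (1.41, 0.0498) and the acinar covariate (1.55, 0.0355), and when untreated tumour 6 (1.55, 0.0400), anti-CD40 tumour 1 (1.79, 0.0474) or anti-CD40 tumour 5 (1.73, 0.0227) was left out.

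The interaction asks whether the combination differs from the sum of the single differences. By limma 0 of the 9 genes passed, against 0.021% of all genes, 2 had an unadjusted p under 0.05 (Nfkbia and Nfkbie), and edgeR and DESeq2 each called 0. The estimates were -0.70 ± 0.30 for Nfkbia (limma adjusted p = 0.512), -0.88 ± 0.41 for Nfkbie (adjusted p = 0.565), -0.52 ± 0.41 for Icam1 (adjusted p = 0.814) and -0.06 ± 0.61 for Tnf (adjusted p = 0.985). A p that misses the threshold does not show that the 2 agents add up.

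Among tumours of the same group, the 9 transcripts varied mostly in the same direction. After subtracting group means, 33 of the 36 pairs had a positive Pearson correlation over the 22 tumours, with a range of -0.203 to 0.836 and a median of 0.406. How often pairs of other genes correlate positively here was not examined. All genes of a tumour share its size factor, so the count is not particular evidence about these genes. Of the 36, 2 passed a permutation test of 100000 permutations within groups, adjusted over the pairs. Tnfrsf1b varied with Nfkbia (r = 0.836, permutation adjusted p = 0.000360; rho = 0.792, adjusted p = 0.00252; r = 0.713 without the 2 tumours farthest from the median). It varied also with Tnfaip3 (r = 0.717, permutation adjusted p = 0.00162; rho = 0.722, adjusted p = 0.00720; r = 0.722 without those 2). The next pair, Tnf with Tnfrsf1a (r = 0.724, permutation adjusted p = 0.0504; rho = 0.485, adjusted p = 0.211), fell to r = 0.425 without the 2 farthest tumours. Nfkb1 with Tnfaip3 passed by rank alone (rho = 0.701, permutation adjusted p = 0.0233; r = 0.663, adjusted p = 0.0590; r = 0.610 without the 2 farthest). The unadjusted p of Tnfrsf1b with Nfkbia, 1e-05, is the smallest that this number of permutations can give.

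**Figure D3:**
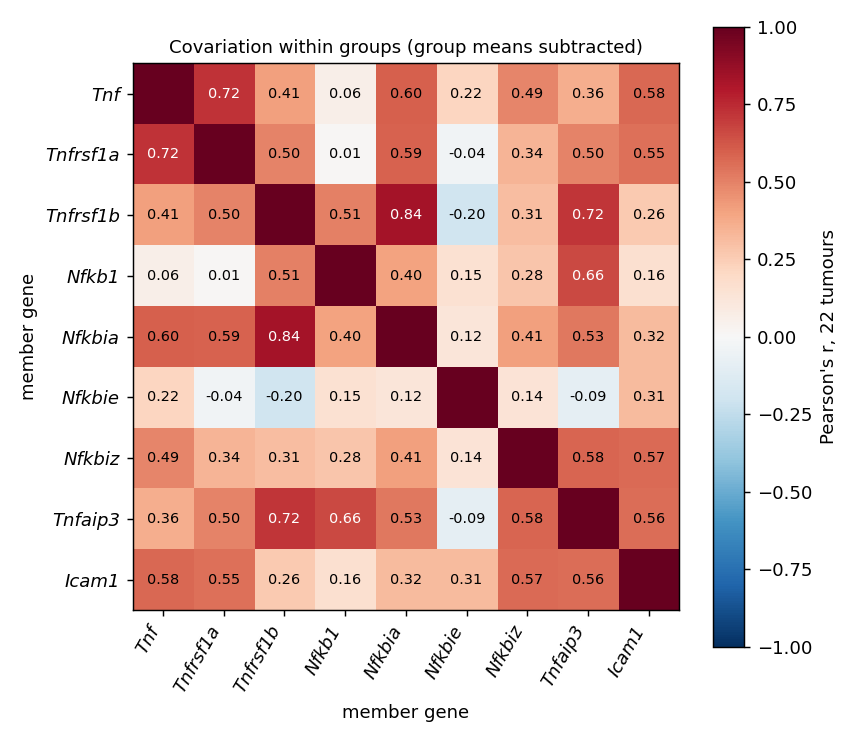
Pearson correlation between each pair of the 9 genes (both axes) over 22 tumours after group means were subtracted, coloured from -1 to 1. Tnfrsf1b with Nfkbia (0.84) and with Tnfaip3 (0.72) passed the adjusted permutation test.

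The genes most like each member were ranked among 11621 others by the same within-group Pearson correlation over 22 tumours, as a description. For Tnf they were Mllt6 (r = 0.846), Coro1b (0.811), Hk2 (0.808), Pomk (0.792) and 9430015G10Rik (0.789). For Tnfrsf1b the first was Sema4a (0.968), for Tnfaip3 Klhl20 (0.950), for Nfkbiz Trim15 (0.934), for Nfkbia Esyt1 (0.916) and for Nfkb1 Ifi207 (0.906). For Icam1 it was 2700099C18Rik (0.901), for Nfkbie Il1rn (0.876), the interleukin-1 receptor antagonist, and for Tnfrsf1a Fosl2 (0.859). These genes share libraries and depth with the members.

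Levels of cell type markers were compared with the 9 genes in the same way, over 81 pairs of a gene and a marker list, a comparison added after the data were seen. By Pearson's r 3 of the 81 passed, and by rank these 3 and 3 others. Nfkbie varied with the macrophage markers (r = 0.730, permutation adjusted p = 0.0262; rho = 0.684, adjusted p = 0.0181; r = 0.709 without the 2 farthest tumours). Tnfrsf1b and Nfkb1 varied with the fibroblast markers (r = 0.670 and 0.692, permutation adjusted p = 0.0262 for both; rho = 0.746 and 0.713, adjusted p = 0.0181 for both; r = 0.781 and 0.536 without the 2 farthest). Tnf was lower in tumours of a group with more islet transcripts by rank (rho = -0.698, permutation adjusted p = 0.0181), while r = -0.604 did not pass (adjusted p = 0.0670) and shrank to -0.381 without the 2 farthest. Nfkbiz was lower in tumours with lower epithelial markers by rank (rho = 0.673, permutation adjusted p = 0.0189), while r = 0.611 did not pass (adjusted p = 0.160) and was 0.663 without the 2 farthest. Tnfaip3 varied with the fibroblast markers by rank (rho = 0.705, permutation adjusted p = 0.0181), while r = 0.545 did not pass (adjusted p = 0.186) and was 0.721 without the 2 farthest.

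**Figure D4:**
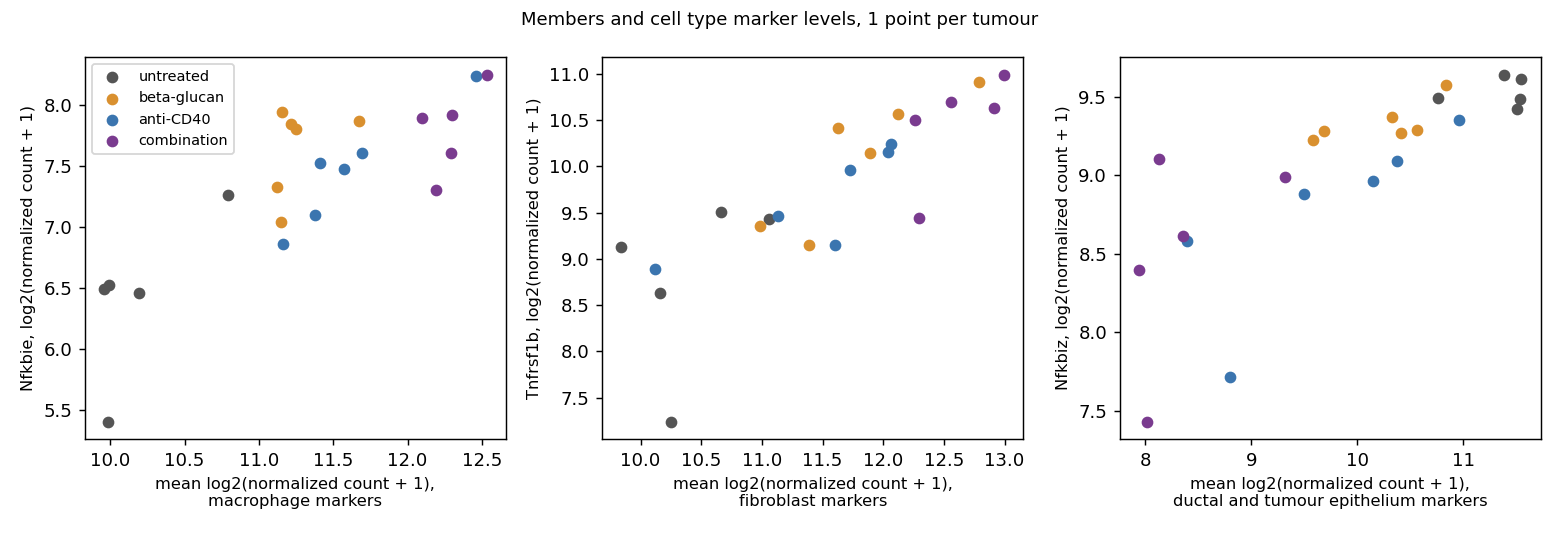
Each point is 1 tumour, coloured by group, with the mean log2(normalized count + 1) of a marker list on the horizontal axis and of a gene on the vertical axis. Within groups, Nfkbie rises with macrophage markers (r = 0.730) and Tnfrsf1b with fibroblast markers (r = 0.670), and Nfkbiz is shown against the epithelial markers, which were lower in 9 of 9 genes with the combination.

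Other genes of the pathway were read from 5 lists of 76 genes in all, of which 75 were found and 72 tested. These lists too were chosen with earlier results of these data known, so their counts beside all genes are a description. With beta-glucan 12 passed as higher and 0 as lower, with anti-CD40 14 and 6, and with the combination 30 and 7. Of all genes tested 5.09% were called higher and 1.32% lower with beta-glucan, 11.0% and 7.56% with anti-CD40, and 18.2% and 15.8% with the combination. The median difference over the 72 was 0.30, 0.23 and 0.50, beside 0.02, 0.00 and -0.01 over all genes. With equal totals the counts were 4 and 0, 4 and 8, and 9 and 7, and with equal totals without acinar genes 8 and 0, 9 and 8, and 19 and 8. Of all 14278 genes, equal totals called 237 higher and 17 lower with beta-glucan, and 537 and 1869 with anti-CD40. Equal totals without acinar genes called 586 and 87, and 1114 and 1392.

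The list of TNF supply and lymphotoxins holds 11 genes, of which 1, 2 and 7 passed as higher with beta-glucan, anti-CD40 and the combination, and 1 was lower with the combination. Of all genes, 5.09%, 11.0% and 18.2% were called higher in that order, and 15.8% lower with the combination. Adam17, the protease that sheds TNF, rose in all 3 comparisons, from 453 ± 86.0 untreated to 742 ± 107, 679.9 ± 112 and 987 ± 189 (log2 0.72, 0.59 and 1.12; limma adjusted p = 0.0130, 0.0188 and 4.67e-05). Ltb, lymphotoxin beta of lymphocytes, went from 18.0 ± 14.8 to 187 ± 138 with anti-CD40 and 283 ± 114 with the combination (log2 3.35 ± 0.49 and 4.14 ± 0.52, adjusted p = 3.99e-05 and 1.86e-06), and its difference with beta-glucan was 1.53 ± 0.49 (adjusted p = 0.0666). T cell markers passed in the same comparisons as Ltb, 7 and 8 of 8 against 0 of 8 with beta-glucan. Of 5 B cell markers tested, 5 and 5 passed as higher there, against 2 with beta-glucan. The part of either cell type in the rise of Ltb was not tested. Lta passed with the combination (log2 2.76 ± 0.95, adjusted p = 0.0279) at a mean of 14.5 ± 7.50. Zfp36, which encodes the protein that destabilizes Tnf mRNA, rose with the combination (1.03 ± 0.30, adjusted p = 0.00913), as did Timp3 (0.80 ± 0.22, adjusted p = 0.0054), the inhibitor of ADAM17. The lower gene was Ltbr, the lymphotoxin beta receptor (-0.62 ± 0.18, adjusted p = 0.0094).

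Of 17 genes of the receptor complex, 1 passed as higher with beta-glucan, 3 higher and 1 lower with anti-CD40, and 8 higher and 2 lower with the combination. Of all genes, 5.09%, 11.0% and 18.2% were called higher in that order, and 1.32%, 7.56% and 15.8% lower. The count of 1 with beta-glucan is near its share. Traf1, an adaptor and NF-kB target, rose in all 3 (log2 1.16 ± 0.33, 1.55 ± 0.33 and 1.70 ± 0.34; limma adjusted p = 0.0329, 0.00162 and 0.000448). Birc2, a ubiquitin ligase of the complex, rose with anti-CD40 (0.90 ± 0.24) and the combination (1.20 ± 0.25), as did Rnf31, the catalytic subunit of the linear ubiquitin ligase (1.0 ± 0.28 and 1.02 ± 0.29). Birc3 passed with the combination (1.55 ± 0.57, adjusted p = 0.0392). Casp8, the initiator caspase of the death branch, fell by 0.48 (anti-CD40) and by 0.60 (combination) on the log2 scale. Cflar, which restrains caspase 8, rose with the combination by 0.58, and Tab1 fell by 1.12.

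Of 9 kinase and Rel genes, 0 passed with either single agent, where 6.42% (beta-glucan) and 18.6% (anti-CD40) of all genes were called. With the combination Ikbke rose (log2 1.46 ± 0.35) and Ikbkg fell by 0.63. That 1 higher and 1 lower of 9 are no more than the 18.2% and 15.8% of all genes so called. The subunit genes did not pass in any comparison: against untreated the differences with the combination were -0.12 ± 0.19 for Rela, 0.50 ± 0.23 for Relb, 0.60 ± 0.68 for Rel and 0.01 ± 0.21 for Nfkb2 (limma adjusted p = 0.662, 0.101, 0.537 and 0.986). Relb and Nfkb2 serve the non-canonical branch.

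The 13 other feedback genes did not move as 1 group, and 1, 5 and 4 of them were called with beta-glucan, anti-CD40 and the combination, against 6.42%, 18.6% and 34.0% of all genes. Nfkbid, a further nuclear IkB gene, rose in all 3 comparisons, from 33.9 ± 19.6 untreated to 112 ± 30.3, 104 ± 48.3 and 192 ± 63.8 (log2 1.85, 1.66 and 2.60; limma adjusted p = 0.0037, 0.0035 and 2.3e-05). Of the rest, 3 fell with anti-CD40 and with the combination: Bcl3, also a nuclear IkB gene (-0.98 and -0.92), the deubiquitinase gene Otud7b (-0.85 and -1.31) and Tnip3, which encodes a partner of A20 (-1.42 and -1.92). Cyld, a deubiquitinase gene, rose with anti-CD40 (0.52 ± 0.12).

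The target genes were the longest list. Of 22 tested, 9 passed as higher with beta-glucan, 7 higher and 2 lower with anti-CD40, and 13 higher with the combination. Of all genes, 5.09%, 11.0% and 18.2% were called higher in that order, and 1.32%, 7.56% and 15.8% lower. Il1b, the cytokine of activated myeloid cells, went from 308 ± 65.6 to 2392 ± 586 with beta-glucan and 2317 ± 963 with the combination (log2 2.94 ± 0.38 and 2.79 ± 0.40; limma adjusted p = 3.98e-05 and 1.24e-05), and stood at 667 ± 517 with anti-CD40 (0.82 ± 0.38, adjusted p = 0.142). Cxcl2, a neutrophil chemokine, on the log2 scale fell by 1.87 ± 0.57 with anti-CD40 and rose by 1.69 ± 0.60 with the combination (adjusted p = 0.024 and 0.031). Ccl5, a chemokine of T cells, rose in all 3 (log2 1.79, 4.94 and 5.36), as did the transcription factor gene Irf1 (0.96, 1.99 and 1.92), the mitochondrial dismutase gene Sod2 (1.48, 1.31 and 2.02), Tnfaip2 (1.26, 1.11 and 1.80) and the protease gene Mmp9 (3.15, 1.08 and 2.66). Vcam1, an adhesion gene like Icam1, passed with anti-CD40 (0.63 ± 0.17, adjusted p = 0.0115) and stood at 0.01 ± 0.17 with beta-glucan and 0.36 ± 0.18 with the combination (adjusted p = 0.993 and 0.133). In the combination against anti-CD40, 3 of the 72 pathway genes passed, all higher and all targets: Cxcl2 (3.56 ± 0.57), Il1b (1.97 ± 0.38) and Mmp9 (1.58 ± 0.37). Of all genes tested, 0.658% were called higher and 0.826% lower in that comparison. Mmp9 is also 1 of the 9 neutrophil markers, of which 3 passed as higher there. The part of neutrophils was not tested. Against beta-glucan 6 passed as higher and 3 as lower, led by Ccl5 (3.57 ± 0.45) and Ltb (2.61 ± 0.49). Those 9 of 72 are near the 14.1% of all genes called in that comparison.

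**Figure D5:**
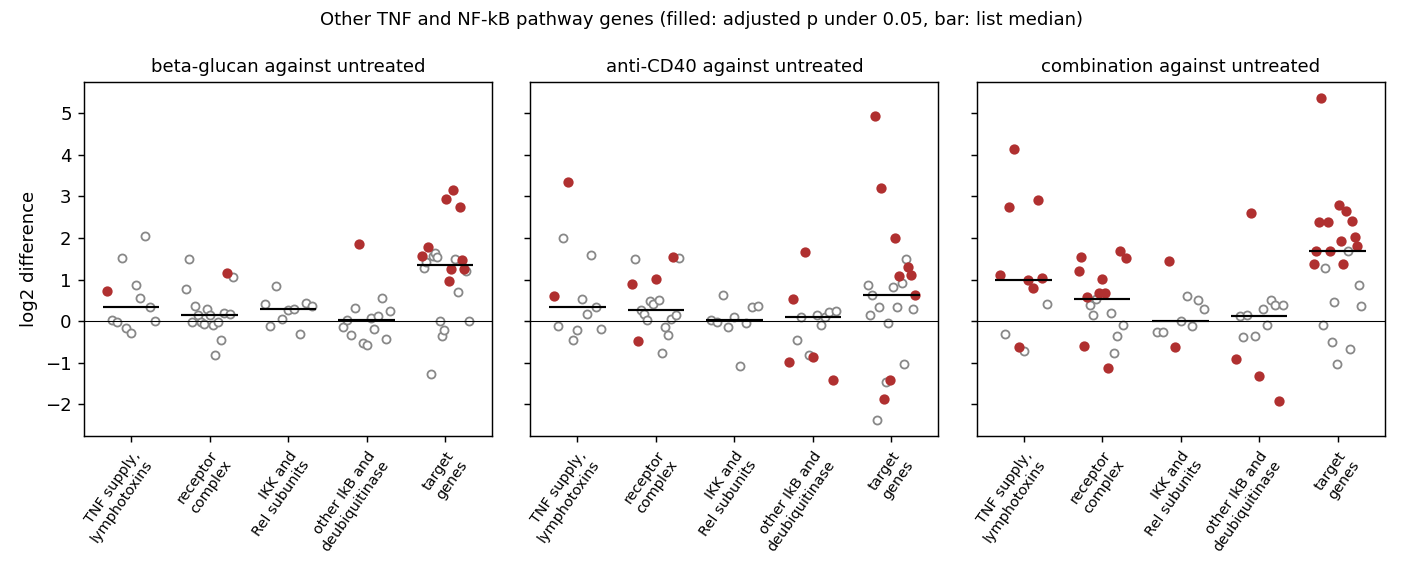
Differences from untreated (vertical axis, log2) of the 72 other pathway genes tested, by list, with 1 panel per treatment, filled points where the limma adjusted p was under 0.05 and a bar at each list's median. Filled points above and below 0 number 12 and 0 with beta-glucan, 14 and 6 with anti-CD40, and 30 and 7 with the combination.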

How the data were processed

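Library and alignment details come from the labels and notes. RNA came from 5 µm sections of formalin-fixed tissue, and 3' libraries were made from 100 ng with a QuantSeq FWD kit, per the labels' protocols; a value counts 3' ends, not transcript length. Per the submitters' processing notes, STAR and DESeq2 were used with the build mm10, with no versions given. How reads were assigned to genes, and whether by strand, is not given in the sources used here. The deposited unit is the normalized count, a signal that the authors obtained by dividing reads by 1 size factor per tumour. Of 395252 values, 100.0% were whole reads within 0.001 after division by the tumour's smallest step, and recovered totals of 6.33 to 21.2 M reads set the precision of low genes; per gene, Tnf rests on 6 to 303 reads. Columns without a sample numbered 0.

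Limma 3.58.1 (R 4.3.3; trend and robust moderation) was fitted to log2(value + 1) with 4 group means over all 22 tumours and 14278 genes, two-sided, adjusted by the Benjamini-Hochberg method within each contrast at 0.05. EdgeR 4.0.16 and DESeq2 1.42.0 were run on the recovered reads. Other alternatives were a pseudocount of 8, no filter, equal totals per tumour with and without acinar genes, the acinar level as a covariate, no tumours over 30% acinar, a replicate block, each tumour left out, and depth as a covariate, which was added after the data were seen. Receptor ratios and correlations used permutation tests in SciPy 1.17.1. The fitting step was checked on simulated data. Gene coordinates are from GENCODE M21 (GRCm38).

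The 9 genes, the pathway lists and the 9 marker lists were chosen with earlier results of these data known. Named were all 9 genes, up to 4 called pathway genes per list and contrast by smallest p, 12 pathway genes regardless of calls, the 5 genes most like Tnf and the first for each other member; some of the pathway genes so selected are left out of the text. Of B cell markers 2, 5 and 5 of 5 tested passed as higher with beta-glucan, anti-CD40 and the combination, of acinar genes 0, 3 and 6 of 21, and of islet genes 1, 7 and 6 of 9.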

Additional observations from a re-analysis of the deposited data

Results flagged for a closer look

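Each group's lowest and highest tumour was compared with the rest for each of the 9 genes, 36 gene and group pairs in all. The comparison used the scale of log2(normalized count + 1). In 3 pairs, from 2 tumours, a value stood far from the others there by Dixon's criterion. Chance alone gives about 1 in 20 of the pairs compared. Values below are normalized counts, on which the gaps are relatively smaller. For Tnf, untreated tumour 6 was lowest at a normalized count of 11.27, against 30.9 to 43.0 in the other 4. The same tumour was lowest for Nfkbia, at 1502.62 against 2749.8 to 2922. Its macrophage marker sum and its acinar share were the highest of the untreated tumours, and so were its Nfkbie (153) and Nfkb1 (125) counts. For Icam1, anti-CD40 tumour 6 was lowest at 171.15, against 596 to 976 in the other 5. Whether these tumours differ for technical reasons was not tested.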

How the results depend on the processing

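Comparisons are named in the order beta-glucan, anti-CD40 and combination against untreated, then combination against beta-glucan, combination against anti-CD40, and interaction. Of the 9 genes, 5, 4, 7, 1, 0 and 0 were called, and of the 72 other pathway genes 12, 20, 37, 9, 3 and 0. With equal totals the members' counts against untreated became 0, 0 and 2, and the pathway counts 4, 12, 16, 4 and 0 in the first 5 comparisons. With equal totals without acinar genes they were 2 and 0 for the members in the first 2 and 1 for pathway genes against anti-CD40. Against beta-glucan 0 members were called with both of these scalings, with edgeR and with depth as a covariate. Against anti-CD40 1 member was called with DESeq2, with a pseudocount of 8 and with the acinar covariate. DESeq2 called 19, 5 and 1 pathway genes with beta-glucan, against anti-CD40 and in the interaction. Without tumours over 30% acinar 20 pathway genes passed with beta-glucan and 5 against beta-glucan. With depth as a covariate 3 members passed with beta-glucan, and 20 and 1 pathway genes with the combination against untreated and against beta-glucan. Of the 36 correlations, 4 passed with a pseudocount of 8, 32 with equal totals and 4 with the acinar level regressed out. Equal totals moved the median of all genes by over 0.1 on the log2 scale in 4 comparisons (-0.56, -0.45, -0.48 and 0.13, the second to the fifth), so that a rise there is relative to that shift. With equal totals without acinar genes the median still lay at -0.18, -0.17 and -0.21 in the second to the fourth, so calls lost there are also relative to a shift.

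Leaving out 1 tumour at a time gave 2 to 5, 2 to 5, 7 to 7, 0 to 2, 0 to 1 and 0 to 0 called members and 6 to 18, 16 to 23, 30 to 39, 4 to 12, 1 to 8 and 0 to 0 pathway genes. With beta-glucan, 2 or 3 members were called without untreated tumour 1, 5 or 6 or beta-glucan tumour 1, 2, 3 or 5, and 6 or 7 pathway genes without untreated tumour 5 or beta-glucan tumour 1, 3 or 5. With anti-CD40, 2 members were called without untreated tumour 2. Against beta-glucan 4 pathway genes passed without beta-glucan tumour 1 and 5 without combination tumour 5. Against anti-CD40 1 passed without anti-CD40 tumour 2 or combination tumour 1, and 8 without anti-CD40 tumour 5. The log2 receptor ratio ranged over 0.65 to 1.10, 0.14 to 0.56, 0.76 to 1.29, -0.086 to 0.38 and 0.45 to 0.90 in the first 5 comparisons, and without combination tumour 4 it passed against untreated and against anti-CD40 (exact adjusted p = 0.0238 for both).

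Signs turned among differences that had not passed. With anti-CD40, Tnfrsf1a (-0.12) and Nfkb1 (-0.16) did so with equal totals, and Tnfaip3 did with edgeR (0.24), DESeq2 (0.25), the acinar covariate (0.30), depth (0.22), and without tumours over 30% acinar (0.71). Against beta-glucan, equal totals turned Tnfrsf1a (-0.25), Tnfrsf1b (-0.14), Nfkb1 (-0.23), Nfkbia (-0.27), Nfkbie (-0.34) and Tnfaip3 (-0.27), and equal totals without acinar genes Nfkbie (-0.071) and Tnfaip3 (-0.0068). In the interaction Tnf turned with a pseudocount of 8 (0.0035), Nfkbiz with equal totals (0.017) and without tumours over 30% acinar (0.10), and Tnfaip3 with edgeR (-0.026), DESeq2 (-0.0084) and without tumours over 30% acinar (-0.12). With 1 tumour left out the ranges that crossed 0 were, for Tnfaip3, -0.52 to 0.33 with anti-CD40, -0.082 to 0.58 against beta-glucan and -0.11 to 0.78 in the interaction; for Nfkb1, -0.0055 to 0.53 against beta-glucan, -0.0047 to 0.54 against anti-CD40 and -0.43 to 0.11 in the interaction; for Nfkbiz, -0.47 to 0.012 against anti-CD40 and -0.27 to 0.21 in the interaction; and for Tnf, -0.39 to 0.27 in the interaction. Of 1728 differences of single genes under an alternative, 1124 with a tumour left out and 470 others kept direction and side of the threshold. The cause of these changes was not tested.

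The titles give groups the same replicate numbers, which are used here, but the tumour titled combination 5 is numbered 6 in its description and in the table's column, so its number is uncertain. Same-numbered tumours did not deviate together (30 pairs, r from -0.271 to 0.338, median 0.0283, 8 over 0.1; 5 of 22 tumours correlated best with their own number), so the numbers are not taken to pair them. With a replicate block 5, 5, 7, 1, 0 and 0 members and 15, 23, 34, 8, 3 and 0 pathway genes were called, Tnfrsf1b gained a call with anti-CD40 (0.94, limma adjusted p = 0.0280), and Tnfaip3 turned against beta-glucan (-0.10). Low read numbers limit Tnf, Tnfaip3 and several pathway genes, among them Lta.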
